A study of Mus musculus with 16 samples.

Results

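A set of 10 pathway genes of mechanical signalling was followed in mouse skin wounds: the coactivators Yap1 and Wwtr1, the 4 TEAD transcription factors (Tead1, Tead2, Tead3 and Tead4), the kinases Lats1 and Lats2, and the target genes Ankrd1 and Amotl2. Every probe set whose only gene symbol in the platform annotation is among these names was taken, which gave 22 of 34945 probe sets and 10 of 18193 genes. Lats2 has 6 of them, Wwtr1 has 3, and Yap1, Tead1, Tead4, Lats1 and Ankrd1 have 2 each, while Tead2, Tead3 and Amotl2 have 1 each. A probe set that the annotation assigns to both Lats2 and Xpo4 was left out.

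The samples were 16 Affymetrix GeneChip arrays of total RNA from incisional wounds on the back of wild-type C57BL/6 mice, all labelled female, in a model of hypertrophic scarring. The 4 groups hold 4 arrays each: stressed wounds at day 14, after 10 days of mechanical loading, unstressed wounds at day 14, stressed wounds at day 6, after 48 hours of loading, and unstressed wounds at day 6. The design text gives 4 mice for each group and time point. The comparisons ask how mechanical load changed these transcripts at each day, and how they changed between the days with and without load. The labels give no age, and whole wound tissue was used, so a transcript may come from any cell type of the wound. Values are log2 signals that the authors centred for each probe set, so 0 is no absolute level, levels of different probe sets cannot be compared, and detection could not be judged. The files do not name the base of the logarithm. It was read as 2, and a natural logarithm, which would make each difference larger, is not excluded.

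YAP, encoded by Yap1, and TAZ, encoded by Wwtr1, carry no DNA-binding domain of their own and act in the nucleus mainly through TEAD proteins. The kinases LATS1 and LATS2 of the Hippo pathway phosphorylate both, which holds them in the cytoplasm or marks them for breakdown, while spread cells, stiff matrix and stretch favour their entry into the nucleus. Most of this control acts on the proteins and their location, which RNA arrays do not measure. Target genes are therefore the readout of the pathway at the RNA level, and Ankrd1, Amotl2, Ccn1 and Ccn2 are classic ones.

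TEAD proteins bind the sequence GGAATG, which reads CATTCC on the other strand. The 250 bases before the annotated start were searched for these 6 letters on both strands in RefSeq's promoter windows on build GRCm38.p6. Of 32851 windows of that length, 12.6% held at least 1 match and 0.992% held 2 or more. Of the 10 genes, 8 matched a window in the table by symbol, and 5 of those 8 (Yap1, Wwtr1, Tead3, Ankrd1 and Amotl2) had a match in at least 1 of their windows. Some genes have several windows, so this count by gene cannot be set against the share by window. By window, 7 of their 12 held a match, but windows of a gene can overlap and share it, as those of Wwtr1 do. The windows of both target genes and of Wwtr1 are shown, since Ankrd1 and Amotl2 are the targets among the 10 and Wwtr1 encodes a coactivator that acts through TEAD proteins. Each is written 5′ to 3′ on the strand of the gene, with the matches in capitals.
Ankrd1 upstream window, chr19:36119845-36120094, minus strand: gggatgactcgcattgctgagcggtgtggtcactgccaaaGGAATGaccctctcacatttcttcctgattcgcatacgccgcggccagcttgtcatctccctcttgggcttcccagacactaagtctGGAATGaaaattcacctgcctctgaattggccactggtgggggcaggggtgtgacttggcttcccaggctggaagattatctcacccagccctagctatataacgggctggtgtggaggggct
Wwtr1 upstream window, chr3:57575911-57576160, minus strand: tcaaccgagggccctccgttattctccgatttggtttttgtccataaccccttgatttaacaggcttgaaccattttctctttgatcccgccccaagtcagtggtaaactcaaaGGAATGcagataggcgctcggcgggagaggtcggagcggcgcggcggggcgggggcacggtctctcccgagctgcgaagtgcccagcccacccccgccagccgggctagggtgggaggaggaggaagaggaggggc
Amotl2 upstream window, chr9:102717554-102717803, plus strand: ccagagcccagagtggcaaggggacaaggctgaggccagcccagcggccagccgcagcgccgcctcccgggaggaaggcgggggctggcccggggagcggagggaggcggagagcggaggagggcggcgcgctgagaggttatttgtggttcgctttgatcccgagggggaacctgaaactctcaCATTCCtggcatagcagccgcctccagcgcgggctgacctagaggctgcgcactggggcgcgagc
The Ankrd1 window holds 2 matches, which begin 210 and 123 bases before the start. The match of Wwtr1 begins 136 bases and that of Amotl2 65 bases before it. Another Wwtr1 window, which is not shown, holds the same match 170 bases before its own annotated start. A match in letters is a description of the window and no evidence of binding.

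The arrays of day 14 fell into 2 classes that do not follow loading. Replicates 3 and 4 of both groups had a high signal of Xist, the RNA that coats the inactive X chromosome, between 5.20 and 7.86, with Y-linked genes between -1.68 and -1.34 on average. The other 12 arrays had Xist at -0.32 to 0.32, with Y-linked genes between -0.21 and 0.27 on average, which goes against their label as female. All arrays of day 6 belong to the class with low Xist, so in comparisons between days the class moves with time. Values by class are given for many of the results whose sign or call they change. Probe sets were tested in limma over all 16 arrays, with Benjamini-Hochberg adjustment over all 34945 of them and a threshold of 0.05.

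Ankrd1, which encodes a muscle ankyrin repeat protein that is induced by stretch and is a YAP and TEAD target, was far lower at day 14 than at day 6, with and without load. In stressed wounds at day 14 its probe set 1420992_at lay at -4.97, -2.67, -3.96 and -1.02 in replicates 1 to 4. In unstressed wounds at day 14 the values were -0.35, -2.76, -3.90 and -4.89. At day 6 they lay within 0.35 to 0.90 in stressed and within 0.65 to 1.12 in unstressed wounds. All 8 arrays of day 14 were below all 8 of day 6, and those of day 14 were spread over a far wider range than those of day 6. The time difference of this probe set was -3.78 in stressed wounds (SE 0.82, adjusted p = 0.0019, 13.8-fold lower) and -3.84 in unstressed wounds (SE 0.82, adjusted p = 0.0019, 14.4-fold lower). In the other probe set, 1420991_at, the days overlapped in stressed wounds, where replicate 4 of day 14 lay at -0.23 and replicate 2 of day 6 at -0.55. It fell by 3.27 in stressed wounds (adjusted p = 0.0083) and fell by 3.17 in unstressed wounds (adjusted p = 0.011). In unstressed wounds the call of 1420991_at was lost with only the day 14 arrays of low Xist, where the difference was -1.83 (adjusted p = 0.076).

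Loading gave no call for Ankrd1 at either day. At day 14, stressed minus unstressed wounds gave -0.18 for 1420992_at (SE 0.82, adjusted p = 0.93) and -0.46 for 1420991_at (SE 0.90, adjusted p = 0.81). At day 6 it was -0.24 (SE 0.82) and -0.36 (SE 0.90). The near-zero mean at day 14 covers opposite directions in the array classes. For 1420992_at the stressed minus unstressed difference was -2.26 in the arrays with low Xist and 1.90 in those with high Xist, and the classes differed by -4.16 (SE 1.24, adjusted p = 0.11). For 1420991_at the differences were -2.55 with low and 1.63 with high Xist. With only the low Xist arrays of day 14 beside those of day 6, the loading difference of 1420992_at passed the threshold (adjusted p = 0.045). In the fit that gave the class difference, where each class of day 14 was a group of its own, it did not pass with low Xist (adjusted p = 0.10). Each class has 2 arrays per group, and the difference between the classes did not pass the test. The sign at day 14 also changed when single arrays were left out, with values from -0.89 to 0.69 for 1420992_at and from -1.28 to 0.35 for 1420991_at.

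Skeletal muscle expresses Ankrd1 after injury and stretch, and signals of muscle genes differed between the samples. The mean of 15 skeletal muscle markers was -3.81, -2.24, -2.40 and -0.24 in stressed wounds at day 14, and 0.78, 0.87, -1.11 and 0.70 in unstressed wounds at day 14. At day 6 it lay between -0.15 and 0.53 in stressed and between -0.02 and 0.57 in unstressed wounds. In stressed wounds at day 14 the array with the lowest Ankrd1, replicate 1, had the lowest muscle mean and replicate 4 had the highest of both. In unstressed wounds at day 14 the arrays do not follow that order: replicate 4 had the lowest Ankrd1 with a muscle mean above those of all 8 arrays of day 6. Of 27 muscle probe sets, 21 fell and 1 rose with time in stressed wounds, while 2 fell and 2 rose in unstressed wounds, where the time difference of Ankrd1 was as large. These are 81.5% of the muscle probe sets in stressed wounds, against 45.3% of all probe sets, and 14.8% in unstressed wounds, against 40.2%. The part of muscle signal in the spread of Ankrd1 at day 14 was not tested. In whole tissue, fewer cells of a type and less RNA per cell cannot be told apart.

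**Figure D1:**
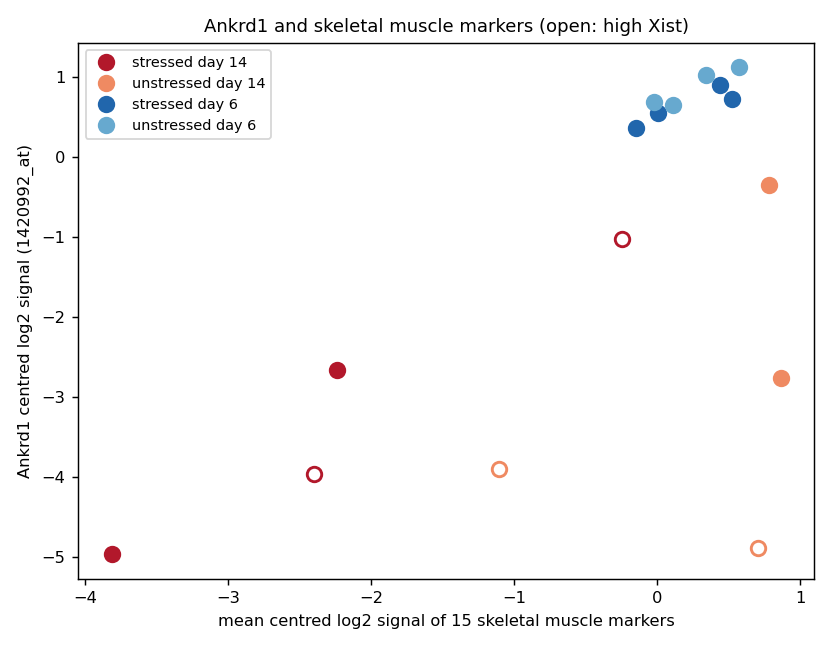
Centred log2 signal of Ankrd1 (probe set 1420992_at, vertical axis) against the mean centred log2 signal of 15 skeletal muscle markers (horizontal axis), 1 point per array, coloured by group, with open points for arrays with high Xist. The 8 arrays of day 6 form a tight cloud above Ankrd1 values of 0, while those of day 14 are spread from -4.97 to -0.35, and 3 of the unstressed ones have muscle means of 0.70 to 0.87.

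Amotl2, an angiomotin-like junction protein that binds YAP and is itself a YAP target, stayed near 0 on most arrays. Its values were 0.04, 0.16, 0.14 and 0.04 in stressed wounds at day 14 and -0.01, -0.06, -0.03 and 0.26 in unstressed wounds at day 14. At day 6 they ran from -0.70 to 0.20 in stressed and from -0.37 to 0.08 in unstressed wounds. The groups overlapped in every comparison, and the loading difference at day 14 was 0.05 (SE 0.17, adjusted p = 0.89).

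Tead4 gave the smallest adjusted p of the 10 genes. It encodes a TEAD factor known for its role in the trophectoderm and in differentiating muscle cells. Its probe set 1426337_a_at lay at -1.17, -0.87, -1.67 and -0.97 in stressed wounds and at -0.88, -1.05, -0.92 and -0.45 in unstressed wounds at day 14. At day 6 it lay at 0.31, 0.38, 0.13 and -0.14 in stressed and at 0.90, 0.73, 0.80 and 1.02 in unstressed wounds. The groups of day 14 were below those of day 6 without overlap, and at day 6 every stressed array was below every unstressed one. With time it fell by 1.34 in stressed wounds (SE 0.18, adjusted p = 6.1e-05) and fell by 1.69 in unstressed wounds (SE 0.18, adjusted p = 1.1e-05). Both calls held in each alternative that was run.

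After 48 hours of loading, Tead4 differed by -0.69 at this probe set (SE 0.18, unadjusted p = 0.0013, adjusted p = 0.34), 1.62-fold lower in stressed wounds, which did not pass over all probe sets. It passed with array weights (-0.78, adjusted p = 0.0084) and after quantile normalization (-0.80, adjusted p = 0.043). The other Tead4 probe set, 1460683_at, did not follow it in time. It lay at 0.29, -0.06, 0.62 and -0.04 in stressed and at -0.33, 0.02, -0.44 and -0.05 in unstressed wounds at day 14, against -0.29 to 0.23 in stressed and 0.07 to 0.27 in unstressed wounds at day 6. Its time differences were 0.31 in stressed and -0.37 in unstressed wounds, neither of them past the threshold, and its loading difference was 0.40 at day 14 (adjusted p = 0.16) and -0.29 at day 6. The change of its loading effect between days, 0.69 (SE 0.23, adjusted p = 0.34), was not called either.

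Of the other TEAD genes, Tead1 passed in 1 comparison at 1 of its 2 probe sets. Tead1 encodes the broadly expressed family member. Its probe set 1429556_at lay at -1.11, -0.52, -0.40 and -0.33 in stressed and at 0.09, -0.02, -0.40 and -0.05 in unstressed wounds at day 14. All 4 stressed arrays of day 14 were below those of day 6, which ran from -0.24 to 0.08. The fall with time in stressed wounds was 0.54 (SE 0.16, adjusted p = 0.014), a call lost after quantile normalization (adjusted p = 0.11) and with only the high Xist arrays of day 14 (adjusted p = 0.13). The loading difference at day 14 was -0.49 (SE 0.16, adjusted p = 0.080). This difference was -0.32 without stressed replicate 1 (adjusted p = 0.23), and it was -0.58 and past the threshold without stressed replicate 4 (adjusted p = 0.037). With only the low Xist arrays of day 14 it was -0.85 (adjusted p = 0.012), and with only the high Xist arrays -0.14 (adjusted p = 0.82). It also passed with array weights (-0.67, adjusted p = 0.012), and it was -0.33 after quantile normalization (adjusted p = 0.46). The second probe set, 1423434_at, stayed between -0.33 and 0.18 on all arrays. Tead2, known from embryonic tissues, and Tead3, known from placenta and muscle, gave no call at their single probe sets.

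The kinase genes rose between day 6 and day 14 at some of their probe sets. Lats1 was the only one of the 10 genes called for loading. Its probe set 1427679_at lay at 2.12, 1.83, 0.52 and 0.68 in stressed wounds at day 14, against 0.27, 0.25, 0.59 and 0.04 in unstressed wounds at day 14. At day 6 the values were -0.04, -0.47, -0.31 and -0.11 in stressed and 0.18, -0.12, -0.48 and -0.21 in unstressed wounds. Replicates 1 and 2 of the stressed wounds at day 14 stood above all other arrays, while replicate 3 was inside the range of the unstressed ones. The loading difference at day 14 was 1.0 (SE 0.29, adjusted p = 0.048, 2-fold higher in stressed wounds), and 0.061 was its adjusted p with the replicate number as a block. It was 1.71 in the arrays with low Xist and 0.29 in those with high Xist, and the 2 classes differed by 1.43 (SE 0.32, adjusted p = 0.043). This test used a fit of all 16 arrays with the day 14 classes as separate groups. It was added after the data were seen and called 1.47% of all probe sets. The call at day 14 was lost on leaving out any array of that day except stressed replicates 3 and 4, with differences of 0.72 to 1.10 and adjusted p-values of 0.055 to 0.17. The loading effect changed by 1.07 between the days (SE 0.41, adjusted p = 0.40), which is also the difference between the time effects of stressed and unstressed wounds.

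With time, Lats1 at this probe set rose by 1.52 in stressed wounds (SE 0.29, adjusted p = 0.00081), while the difference in unstressed wounds was 0.45 (adjusted p = 0.23). Over 17 alternatives the difference in unstressed wounds ran from 0.34 to 0.78, and it passed the threshold in 1 of them (adjusted p = 0.035). The second probe set, 1435739_at, was not called for any comparison. It ran from -0.09 to 0.29 in stressed and from -0.18 to 0.37 in unstressed wounds at day 14, so the groups overlapped.

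The 6 probe sets of Lats2 did not agree among themselves. Probe set 1419678_at lay at 1.01, 1.23, 0.58 and 0.95 in stressed and at 0.44, 0.51, 0.36 and 0.64 in unstressed wounds at day 14. At day 6 it lay at -0.16, -0.76, -0.10 and 0.18 in stressed and at -0.41, 0.02, -0.71 and -0.51 in unstressed wounds. All arrays of day 14 were above all arrays of day 6, and it rose by 1.15 in stressed wounds (SE 0.20, adjusted p = 0.00037) and by 0.89 in unstressed wounds (SE 0.20, adjusted p = 0.0025). Its loading difference at day 14 was 0.45 (adjusted p = 0.18).

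Probe set 1425420_s_at of Lats2 went the other way. It lay at -0.62, -0.60, -0.71 and -0.83 in stressed and at -0.69, -0.33, -0.50 and -0.08 in unstressed wounds at day 14, against -0.20 to 0.19 in stressed and -0.07 to 0.45 in unstressed wounds at day 6. It fell by 0.74 in stressed wounds (SE 0.15, adjusted p = 0.0010) and by 0.57 in unstressed wounds (SE 0.15, adjusted p = 0.0067), and in neither did the days overlap. The call in unstressed wounds was lost with only the high Xist arrays of day 14 (-0.46, adjusted p = 0.067). A further probe set, 1419679_at, rose by 0.52 in stressed wounds (SE 0.18, adjusted p = 0.024), a call lost without replicate 1 or 4 of day 6 (0.51 and 0.47) or replicate 1 or 2 of day 14 (0.49 and 0.34). That call was also lost with only the arrays of the stressed groups (adjusted p = 0.059) and with only the high Xist arrays of day 14 (0.20, adjusted p = 0.35), while the low Xist arrays gave 0.84 (adjusted p = 0.0022). With the day 14 classes as separate groups, its loading difference at day 14 was 0.62 with low Xist (adjusted p = 0.045) and 0.025 with high Xist. The difference between the classes was not called (adjusted p = 0.31). With only the low Xist arrays of day 14 beside those of day 6, its loading difference was not called. The other 3 gave no call, and 1439441_x_at had the largest loading difference of the gene at day 6, 0.47 (SE 0.19, adjusted p = 0.75), which was 0.26 without unstressed replicate 3. Probe sets with the endings _s_at and _x_at can, by Affymetrix's naming, also detect other transcripts. Which transcript of Lats2 each probe set reads was not analysed here.

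Wwtr1, the gene of TAZ, was lower at day 14 than at day 6 in unstressed wounds. Its probe set 1417817_a_at lay at 0.36, 0.33, -0.72 and -0.91 in stressed and at -0.45, -0.34, -0.89 and -1.58 in unstressed wounds at day 14. At day 6 it lay between 0.03 and 0.49 in stressed and between 0.05 and 0.86 in unstressed wounds. The unstressed arrays of the 2 days did not overlap, while in stressed wounds replicates 1 and 2 of day 14 lay within the range of day 6. The fall in unstressed wounds was 1.18 (SE 0.31, adjusted p = 0.0077), and it was 0.76 with only the day 14 arrays of low Xist (adjusted p = 0.012). In stressed wounds the time difference was -0.45 (SE 0.31, adjusted p = 0.25), and it was 0.13 in the arrays with low Xist at day 14 and -1.03 in those with high Xist (adjusted p = 0.61 and 0.0069). The difference between the time effects of stressed and unstressed wounds was 0.73 (SE 0.44, adjusted p = 0.61), which was not called. In both groups of day 14 the 2 arrays with high Xist were lower at this probe set than the 2 with low Xist.

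Probe set 1437155_a_at of Wwtr1 had the same order of arrays by class, at 0.25, 0.19, -1.25 and -1.17 in stressed and at -0.23, 0.09, -0.96 and -2.11 in unstressed wounds at day 14. It fell by 1.16 with time in unstressed wounds (SE 0.42, adjusted p = 0.040). That call was lost with the replicate number as a block (adjusted p = 0.056), with the Xist class as a block (-0.43, adjusted p = 0.17), with array weights (-0.60, adjusted p = 0.13), with only the arrays of the unstressed groups (adjusted p = 0.059), with only the low Xist arrays of day 14 (-0.43, adjusted p = 0.12) and on leaving out any array of the unstressed groups except replicates 1 and 2 of day 14. The differences without the other 6 ranged from -1.25 to -0.72, the smallest without replicate 4 of day 14. With only the high Xist arrays of day 14 the difference was -1.89 (adjusted p = 0.00047). The third probe set, 1417818_at, gave no call and did not share this order. In unstressed wounds at day 14 it lay at -0.75 and -0.58 with low Xist and higher, at -0.001 and -0.08, with high Xist. In stressed wounds at day 14 its classes overlapped. The loading difference of 1417817_a_at at day 14 was 0.58 (SE 0.31, adjusted p = 0.28), and it passed with only the low Xist arrays of that day (0.75, adjusted p = 0.043). With the day 14 classes as separate groups it did not pass with low Xist (adjusted p = 0.065). The loading difference was 0.42 with only the high Xist arrays (adjusted p = 0.57). It lay between 0.33 without unstressed replicate 4 and 0.81 without stressed replicate 4 when single arrays of day 14 were left out, none of these past the threshold. Without stressed replicate 1 or 2 it was 0.38 and 0.39. The other 2 were not called for loading at either day.

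Yap1 gave no call in any comparison. Its probe set 1448363_at lay at -0.15, -0.52, 0.04 and 0.14 in stressed wounds at day 14, all below the 0.36, 0.23, 0.31 and 0.24 of unstressed wounds at day 14. The loading difference was -0.41 (SE 0.13, adjusted p = 0.072), 1.32-fold lower in stressed wounds. It passed with only the day 14 arrays of low Xist (-0.63, adjusted p = 0.018), with the Xist class as a block (adjusted p = 0.046), with array weights and without stressed replicate 4 (-0.49, adjusted p = 0.023). With only the high Xist arrays it was -0.18 (adjusted p = 0.68), after quantile normalization -0.29 (adjusted p = 0.45), and without stressed replicate 2 -0.27 (adjusted p = 0.22). Probe set 1416487_a_at had values of 0.08, 0.03, -0.80 and -0.31 in stressed and of -0.18, -0.29, 0.16 and -0.18 in unstressed wounds at day 14. The groups of this probe set overlapped, and the loading difference was 0.29 in the arrays with low Xist and -0.54 in those with high Xist, neither of them called.

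**Figure D2:**
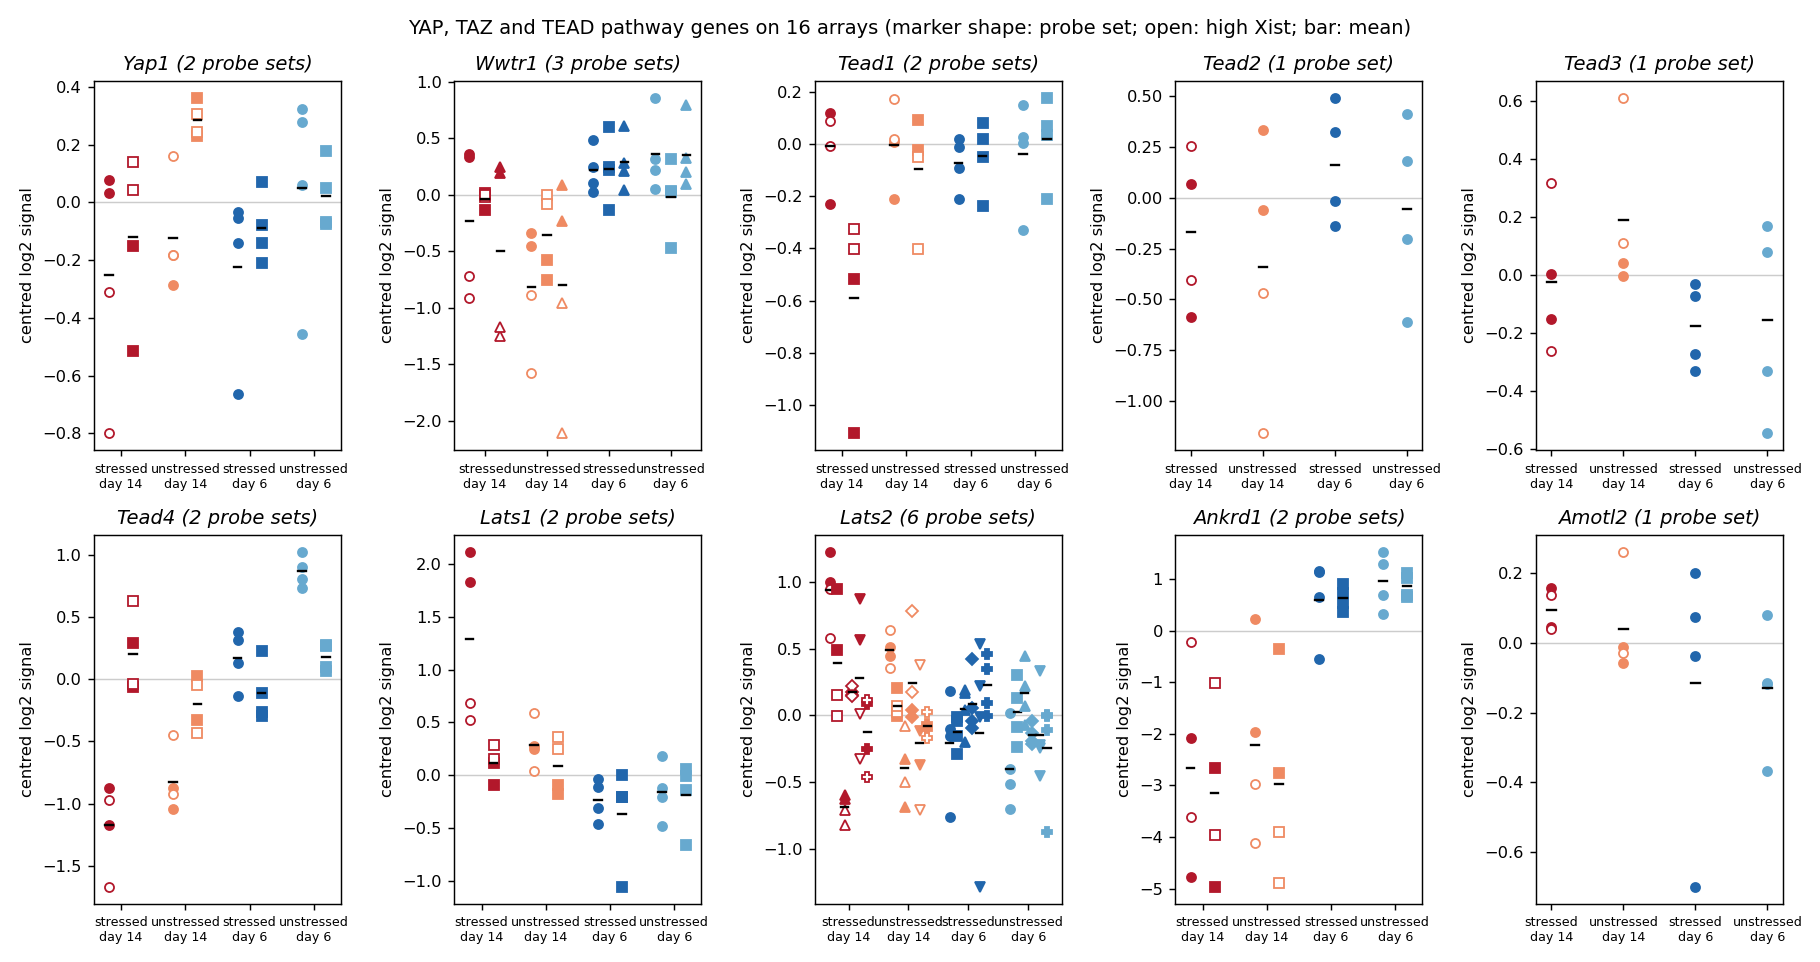
Centred log2 signal (vertical axes) of the 22 probe sets, a panel per gene and a point per array, with a black bar at each group mean, marker shapes for the probe sets of a gene, and open points for arrays with high Xist. Ankrd1 1420992_at and Tead4 1426337_a_at separate the days, Lats1 has 2 stressed arrays of day 14 at 1.83 and 2.12, and the open points of Wwtr1 lie low in both groups of day 14.

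Over the set, loading called 0 of the 22 probe sets at day 6, where 0.0258% of all probe sets were called. An unadjusted p under 0.05 was found at 2 of the 22 and at 1982 of all 34945 probe sets. Array weights and quantile normalization each called 1 of the 22. At day 14 loading called 1 of 22, and that higher, or 4.55%, against 7.35% of all probe sets (3.31% higher and 4.04% lower). An unadjusted p under 0.05 was found at 5 of the 22, and at 8145 of all 34945 probe sets. The count of calls among the 22 was 0 with only the day 14 arrays, 0 with the replicate block, 5 with only the low Xist arrays and 0 with only the high Xist arrays. The sign of the loading difference at day 14 also differed between the classes for Tead2, at -0.40 with low and 0.74 with high Xist, Lats2 1426156_at, at 0.15 and -0.30 in that order, and Lats1 1435739_at, at 0.15 and -0.09. It differed too for Tead1 1423434_at, at 0.048 with low and -0.056 with high Xist, and for Amotl2, at 0.14 and -0.029. Lats2 1437101_at had 0.96 with low and 0.0084 with high Xist, and none of these class differences was called. The groups of stressed and unstressed wounds did not overlap at 1 probe set at each day, Yap1 1448363_at at day 14 and Tead4 1426337_a_at at day 6, where 10.1% of all probe sets did not overlap at day 14 and 6.16% at day 6. The median difference of the 22 was 0.01 at day 14 and -0.07 at day 6, and the median over all probe sets was 0.005 at day 14 and 0.001 at day 6. The change of the loading effect between the days gave 0 calls among the 22 (0.00858% of all probe sets were called). Its unadjusted p was under 0.05 at 2 of the 22 and at 3506 of all 34945 probe sets.

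**Figure D3:**
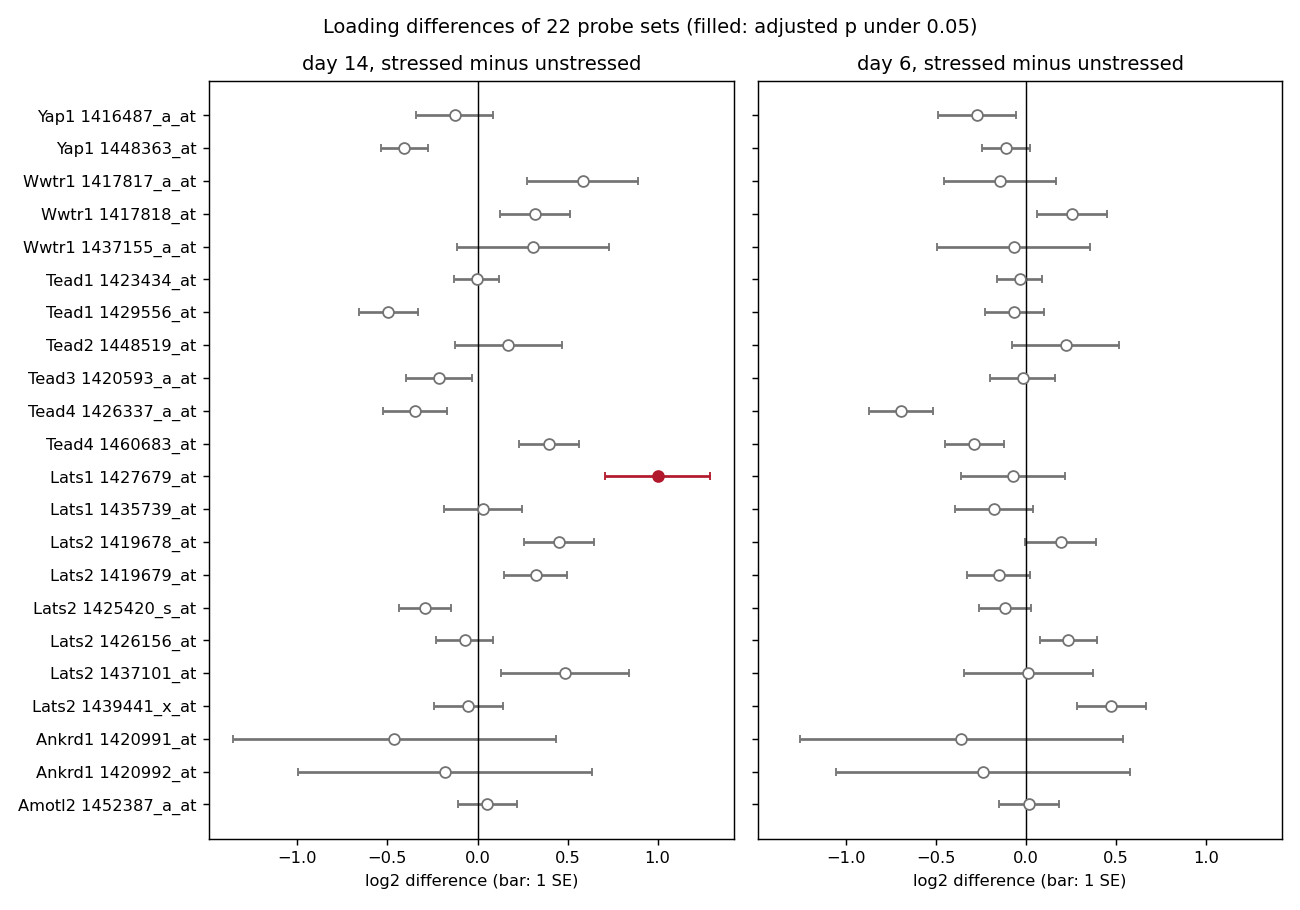
Loading differences on the log2 scale (stressed minus unstressed, horizontal axes) of the 22 probe sets at day 14 and at day 6, with bars of 1 SE and filled points where the adjusted p is under 0.05. The only filled point is Lats1 1427679_at at day 14, at 1.0, and the widest bars are those of Ankrd1.

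With time, 8 of the 22 probe sets were called in stressed wounds, 3 higher and 5 lower at day 14, or 36.4% against 45.3% of all probe sets (18.7% higher and 26.6% lower). In unstressed wounds 7 were called, 1 higher and 6 lower, or 31.8% against 40.2% (16.8% higher and 23.4% lower). The days did not overlap at 7 of the 22 in stressed wounds, where 39.9% of all probe sets did not, and at 10 in unstressed wounds, where 38.4% did not. The 2 time comparisons have no array in common. Tead4 1426337_a_at, both Ankrd1 probe sets, and Lats2 1419678_at and 1425420_s_at were called in both, with the same signs. Median differences of the 22 were -0.03 in stressed and -0.09 in unstressed wounds, against -0.07 in stressed and -0.05 in unstressed wounds over all probe sets.

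**Figure D4:**
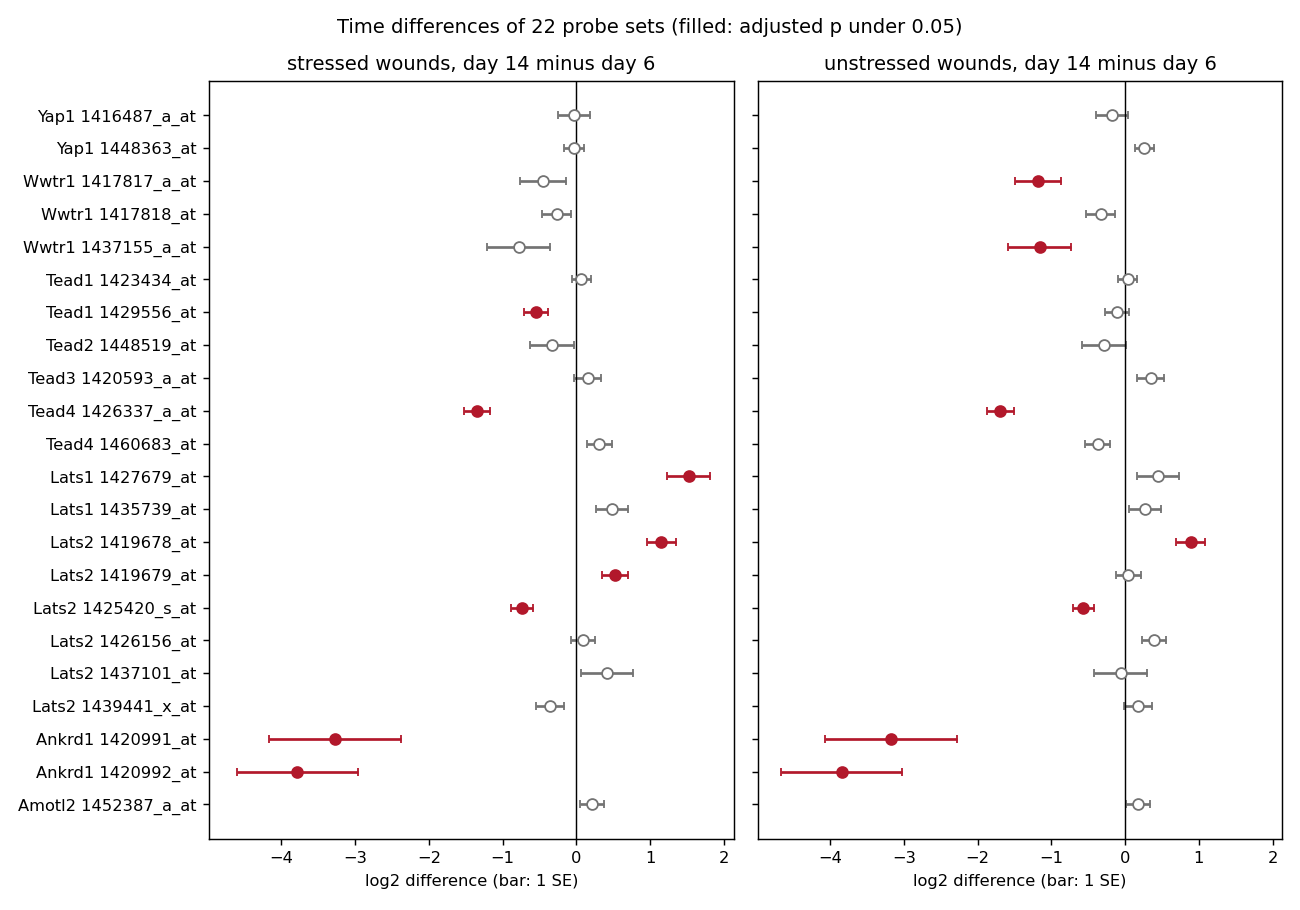
Time differences on the log2 scale (day 14 minus day 6, horizontal axes) of the 22 probe sets in stressed and in unstressed wounds, with bars of 1 SE and filled points where the adjusted p is under 0.05. Ankrd1 stands far to the left in both panels, at -3.27 and -3.78 in stressed and -3.17 and -3.84 in unstressed wounds. The Lats1 point at 1.52 is filled in stressed wounds, and the difference between its time effects, 1.07, was not called.

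Upstream Hippo genes were described as a list of 23 measured genes with 66 probe sets, of which limma called 0 for loading at day 6 (4 had an unadjusted p under 0.05). At day 14, 5 probe sets rose and 6 fell in stressed wounds, 16.7% of the list against 7.35% of all probe sets (3.31% higher and 4.04% lower). By adjusted p the atypical cadherin pair came first among the rises: Dchs1, a ligand, rose by 1.13 (SE 0.17, adjusted p = 0.0022) and its receptor Fat4 by 2.25 and 1.94 at its 2 probe sets. Wwc1, the scaffold protein KIBRA that promotes LATS activity, fell by 1.14 at 1 of its 4 probe sets, and Ptpn14, a phosphatase that binds YAP, fell by 0.68 and 0.74 at 2 of 3.

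With time, 9 upstream probe sets rose and 19 fell in stressed wounds and 5 rose and 19 fell in unstressed wounds. These are 42.4% of the list in stressed wounds, against 45.3% of all probe sets, and 36.4% in unstressed wounds, against 40.2%. The kinase Map4k4, which can phosphorylate LATS, fell by 1.59 in stressed and fell by 1.0 in unstressed wounds at 1422615_at. Stk4, the gene of the Hippo kinase MST1, fell by 0.79 in stressed and by 0.77 in unstressed wounds at 1434159_at, and Rassf5, a binding partner of that kinase, fell by 1.72 in stressed and fell by 2.08 in unstressed wounds at 1422637_at. Nf2, the gene of the membrane-linked activator merlin, rose by 1.05 in stressed and by 0.88 in unstressed wounds at 1451829_a_at, with both signs among its 4 probe sets.

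Among 10 TEAD and YAP cofactors with 23 probe sets, 2 probe sets rose and 1 fell at day 14 with loading. These calls are a larger share of the list than the 7.35% called among all probe sets. At day 6 limma called 0 of the 23 (1 had an unadjusted p under 0.05), against 0.0258% of all probe sets. Vgll2, a TEAD partner of skeletal muscle, fell by 1.48 (SE 0.31, adjusted p = 0.011), beside the lower muscle markers given above. Runx1, a transcription factor that can bind YAP, rose by 1.39 at 1422864_at and by 0.44 at 1452530_a_at, and its other 4 probe sets were not called. With time 3 probe sets rose and 11 fell in stressed wounds, 60.9% of the list against 45.3% of all probe sets, and 1 rose and 10 fell in unstressed wounds, 47.8% against 40.2%. Vgll4, which competes with YAP for TEAD proteins, fell by 2.41 in stressed wounds (SE 0.26, adjusted p = 1.6e-05) and by 1.65 in unstressed wounds (SE 0.26, adjusted p = 0.00020).

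Other cofactors named by their small p-values in stressed wounds were the coactivator Ncoa3, which fell by 0.99, Vgll2, which fell by 1.53, and the TGF-beta effector Smad3, which rose by 0.74 at 1450471_at and fell by 0.57 at 1454960_at. In unstressed wounds they were Runx1 (-1.34 at 1440878_at), the TEAD partner Vgll3 (-1.34 at 1455299_at) and the AP-1 subunit Jun (-1.43 at 1417409_at).

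A signature of 19 YAP target genes, with 48 probe sets, held 0 limma calls for loading at day 6, where 7 had an unadjusted p under 0.05. At day 14 it held 0 rises and 3 falls, 6.25% of the list against 7.35% of all probe sets. The falls were those of Ptpn14, which is both a target and a YAP binder, and of Axl, a receptor tyrosine kinase, by 0.48 at 1 of its 2 probe sets. Ccn1 and Ccn2, the matricellular proteins CYR61 and CTGF, were not called for loading. At day 6 Ccn1 differed by 1.08 to 1.27 at its 4 probe sets, for 1416039_x_at 1.22 (SE 0.60, adjusted p = 0.89), and Ccn2 by 0.97 (SE 0.52, adjusted p = 0.92). Beside these day 6 values, 25 of 26 fibroblast marker probe sets were higher in stressed wounds, 10 of them at an unadjusted p under 0.05 and 0 called. So were 21 of 21 macrophage and monocyte, 14 of 15 endothelial and 13 of 19 smooth muscle and pericyte probe sets. Of the other lists, 12 of 27 skeletal muscle, 7 of 16 adipocyte and 2 of 25 keratinocyte probe sets were higher. Over all 34945 probe sets, 17591 were higher in stressed wounds at day 6, and 1982 had an unadjusted p under 0.05 in either direction. The part of cell content in the differences of Ccn1 and Ccn2 was not tested. At day 14 Ccn1 ranged from -0.11 to 0.86, and Ccn2 differed by 0.26 (SE 0.52).

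Between the days, 6 signature probe sets rose and 12 fell in stressed wounds and 8 rose and 9 fell in unstressed wounds. These are 37.5% of the list in stressed wounds, against 45.3% of all probe sets, and 35.4% in unstressed wounds, against 40.2%. Ccn1 fell by 2.35 at 1438133_a_at (SE 0.72, adjusted p = 0.015) and by 1.79 at 1416039_x_at (SE 0.60, adjusted p = 0.023) in stressed wounds, and both calls were lost with the Xist class as a block (-1.87 and -1.44), with only the low Xist arrays of day 14 (-1.46 and -1.09) and without stressed replicate 3 of day 14 (-1.77 and -1.41). The call of 1416039_x_at was also lost without stressed replicate 3 or 4 of day 6 (-1.66 in each case). In unstressed wounds none of its probe sets was called. Ccn2 differed by -1.10 in stressed wounds (adjusted p = 0.095) and by -0.39 in unstressed wounds. In stressed wounds this was -0.57 without replicate 3 of day 14 (adjusted p = 0.33) and -0.56 with only the low Xist arrays of day 14 (adjusted p = 0.37), and it passed without replicate 2 of day 14 (-1.51, adjusted p = 0.026) and with array weights (-1.13, adjusted p = 0.047).

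Named by p-value in stressed wounds were Arhgef17, with a rise of 0.82 and a fall of 0.68 at 2 of its 5 probe sets, the transcription factor Foxf2 (0.68), the RNA-binding protein Rbms3 (-1.07) and the growth factor Tgfb2 (-1.04 at 1450923_at). In unstressed wounds they were the growth arrest gene Gadd45a (-2.30, SE 0.30, adjusted p = 5.3e-05), the kinase Nuak2 (-1.23), Fjx1, related to the fly gene four-jointed (0.86 at 1450728_at and -0.49 at 1422733_at), and the Rac exchange factor Dock5 (0.53 at 1430291_at).

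MRTF and SRF targets, a second set of genes controlled by actin and tension, held 20 genes with 36 probe sets. At day 6 limma called 0 of them for loading (2 had an unadjusted p under 0.05). At day 14 it called 4 lower and 0 higher, 11.1% of the list against 7.35% of all probe sets. The calls lay in the tropomyosins Tpm2 (-2.55 at 1419739_at) and Tpm1 (-2.09 at 1447713_at) and in the LIM protein gene Fhl1 (-2.11 at 1417872_at). All 3 genes are abundant in skeletal muscle, and 17 of 27 muscle marker probe sets (63.0%) fell and 0 rose in the same comparison. With time, 4 rose and 16 fell in stressed wounds, 55.6% of the list against 45.3% of all probe sets, and 5 rose and 3 fell in unstressed wounds, 22.2% against 40.2%.

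In stressed wounds the named genes of this list were the calponin gene Cnn1 (-1.59), Actb (-1.57 at 1419734_at), Tpm1 (-2.62 at 1447713_at) and the SRF coactivator Mrtfb, also called Mkl2 (1.16 at 1445134_at and -0.54 at 1435547_at). In unstressed wounds Fhl1 rose by 1.83 at 1459003_at, Tpm1 rose by 1.05 at 1423721_at, Actb fell by 1.26, and Mrtfb had 0.91 and -0.50 at the same 2 probe sets. Muscle markers beside these had 1 rise and 21 falls in stressed and 2 rises and 2 falls in unstressed wounds.

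**Figure D5:**
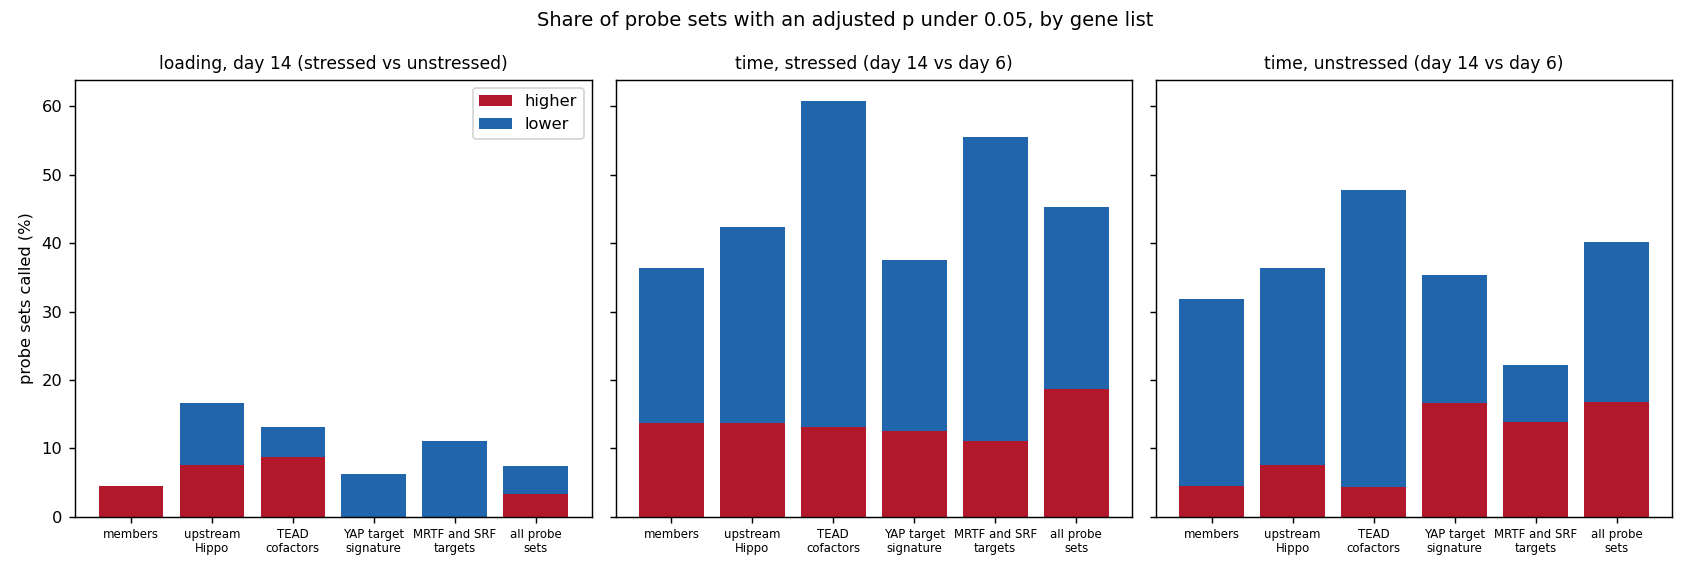
Share of probe sets with an adjusted p under 0.05 (vertical axis, percent), split into higher and lower, for the 10 genes (members), 4 pathway lists and all probe sets, in the loading comparison at day 14 and in both time comparisons. The bars of the 10 genes, at 4.55%, 36.4% and 31.8%, stand beside those of all probe sets, at 7.35%, 45.3% and 40.2%.

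The calls of the pathway lists at day 14 rested on the fit of all 16 arrays. Of 13 loading calls named above, 2 remained with only the day 14 arrays, 6 with those arrays and the Xist class as a block, 10 with the replicate block, 4 after quantile normalization and 2 with only the high Xist arrays, and 0 held under every alternative run. Leaving out single arrays of day 14 ended the call of Ptpn14 at 1436442_at without stressed replicate 2 (-0.65, adjusted p = 0.052), those of Runx1 in 6 of 8 cases at 1422864_at (1.10 to 1.44) and in 4 of 8 at 1452530_a_at (0.39 to 0.44), and that of Axl in 5 of 8 (-0.49 to -0.39). Markers of other cells also differed with loading at day 14: of 26 fibroblast probe sets 13 rose and 0 fell, of 21 macrophage and monocyte probe sets 12 rose and 0 fell, and of 16 adipocyte probe sets 0 rose and 11 fell. Summarised per array, the fibroblast mean lay between -0.28 and 0.28 in stressed and between -1.80 and -0.69 in unstressed wounds. The macrophage mean lay between -0.97 and 0.004 in stressed and between -2.13 and -1.28 in unstressed wounds. The adipocyte mean lay between -1.95 and 0.02 in stressed and between 0.10 and 1.45 in unstressed wounds. Limma called 0 of 15 endothelial and 0 of 25 keratinocyte probe sets. Of these, 6 and 8 had an unadjusted p under 0.05, as had 8145 of all 34945 probe sets. Of 19 smooth muscle and pericyte probe sets 3 rose and 2 fell, or 26.3%. The part of these shifts in the loading differences of Lats1, Fat4, Dchs1 and the tropomyosins was not tested. With centred values it cannot be said which markers are absent.

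For Yap1, Wwtr1 and Ankrd1, the genes with the most similar pattern over the 16 arrays were found by the mean absolute difference from the member's most variable probe set, after centring each on its mean. Those of Ankrd1 1420992_at were Anp32a (0.68), the myogenic factor Myog (0.74) and the cell cycle inhibitor Cdkn1a (0.79), against a median of 2.0 over all probe sets. Those of Wwtr1 1437155_a_at were Snx6, Snw1 and Bicd2 at 0.17 to 0.20, against 0.65. For Yap1 1416487_a_at, which varied little, they were Immp1l, Nudt19 and Slc31a1 at 0.12 to 0.13, against 0.36. A flat probe set would lie as far away as the member's mean absolute deviation from its own mean. This deviation was 2.02 for Ankrd1, 0.61 for Wwtr1 and 0.24 for Yap1.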

How the data were processed

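Gene expression was measured on 16 GeneChip arrays of wound tissue, 4 in each of 4 groups taken from the sample titles. Per the labels' design text, a gene was read by 20 oligonucleotide pairs, and GeneSpring GX 11.0 served the authors for processing. The deposited values were read as log2 signals centred per probe set by the authors, since they lie around 0 on both sides; the reference of the centring stays unknown (the median of 6.3% of probe sets is within 0.001 of 0, and array medians run from -0.009 to 0.052). Background correction, summarization and normalization between arrays are steps not given in the sources used here. Precision is set by the number of arrays. Probe sets ranged over up to 10.08 units, more than a log10 scale of 16-bit scans can span (4.82).

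Of 45101 rows, 34945 probe sets had 1 gene symbol in the platform annotation and were tested, while 932 had several, 9160 had none and 64 were control rows, all left out. No values were filtered or rescaled. Group means were fitted with lmFit and eBayes of limma 3.58.1, run under R 4.3.3, over all 16 arrays, with 5 two-sided contrasts and Benjamini-Hochberg adjustment over all probe sets at 0.05. Tables were made with pandas 2.3.3 and numpy 2.4.6 on Python 3.11.15, and figures with matplotlib 3.10.9. The fit was tested on simulated data.

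Alternatives were 1 probe set per gene, quantile normalization, array weights, only the arrays compared, a replicate block, the Xist class as a block or restricted to either class, an SD filter, and each array left out. Quantile normalization was run on the deposited centred values, not on uncentred signals, and gave these values the same distribution on every array. The day 14 fit with the Xist class and the test of the class difference were added after the data were seen. The printed fit has no replicate block. At day 14 the deviations of same-numbered arrays correlated at 0.249, 0.172, 0.259 and 0.144, so block values are given where they change a call, but differently numbered arrays of the same Xist class (set at a centred signal of 3) correlated at 0.069 to 0.233, and number and class cannot be told apart. At day 6 same-numbered arrays correlated at -0.42 to -0.001. Within groups the SD of differences between replicates was at least 0.238. P-values measure the spread between these arrays.

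The genes and lists were chosen with earlier results of these data known. Some listed genes, among them Stk3, Runx2, Plin1 and Cfd, were not analysed here. Named were all probe sets of the 10 genes, at most 4 genes per pathway list with the smallest adjusted p among those called, Ccn1 and Ccn2, and 3 genes of nearest pattern for Yap1, Wwtr1 and Ankrd1. Promoters came from RefSeq windows on GRCm38.p6, searched on both strands.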

Additional observations from a re-analysis of the deposited data

Results flagged for a closer look

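The loading difference of Lats1 1427679_at at day 14 was larger in the arrays with low Xist than in those with high Xist by a log2 value of 1.43 (limma, SE 0.32 and adjusted p = 0.043), with 1.71 in the class with low Xist, where both stressed arrays stood above both unstressed ones, and 0.29 in the class with high Xist. Over 88 combinations of a probe set and a group, 2 held an array far from the other 3. Amotl2 in unstressed wounds at day 14 had 0.26 in replicate 4, while the others lay between -0.06 and -0.01. Lats2 1439441_x_at in unstressed wounds at day 6 had -0.88 in replicate 3, while the others lay between -0.11 and 0.00. Chance alone gives about 1 in 20 such groups.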

How the results depend on the processing

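For loading at day 6 the count over all probe sets, 9, was 591 with array weights, 433 after quantile normalization, 18 with only the high and 16 with only the low Xist arrays of day 14, 16 with only the arrays compared, 15 with the Xist class as a block, 1 with the replicate block, and 0 to 9 with single arrays left out. For the 22 probe sets it was 1 with array weights, 1 after quantile normalization, and 0 in every fit with an array left out. For loading at day 14 the count over all probe sets, 2567, was 5149 with array weights, 6548 with only the low and 800 with only the high Xist arrays, 4085 with the Xist class as a block, 1153 with the day 14 arrays and that block, 122 with the day 14 arrays alone, 362 after quantile normalization, 1483 with 1 probe set per gene, and 948 to 4800 with single arrays left out (4800 without stressed replicate 4). Among the 22, in place of 1, the counts were 3 with array weights, 5 and 0 with only the low and only the high Xist arrays, 2 with the Xist class as a block, 0 with the day 14 arrays with or without that block, 0 after quantile normalization, 0 with the replicate block, and 0 to 3 with arrays left out.

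The change of the loading effect, called at 3 probe sets, was called at 865 with array weights, 2749 with only the low and 83 with only the high Xist arrays, 76 with the Xist class as a block, 22 under the SD filter, 16 with the replicate block, 7 with 1 probe set per gene and 1 to 333 with arrays left out. Among the 22 it was 1 with array weights and 1 with only the low Xist arrays, both for Lats1, and 0 in the fits with an array left out. The time counts of the 22 were 5 in stressed and 4 in unstressed wounds with 1 probe set per gene, where 10 were tested, and 7 to 9 and 6 to 8 with arrays left out. With the replicate block, the calls of Lats1 1427679_at for loading at day 14 (adjusted p = 0.061) and Wwtr1 1437155_a_at for time in unstressed wounds (adjusted p = 0.056) were lost, and no other call among the 22 changed.

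Among the differences reported with their alternatives, signs reversed in these cases. For loading at day 14 the values were 1.63 and 1.90 for the Ankrd1 probe sets and -0.029 for Amotl2 with only the high Xist arrays, for Ccn1 1438133_a_at 0.25 under array weights and 0.72 when the high Xist arrays were left out, and -0.14 with only the high Xist arrays for Ccn2. The change of the loading effect of Ankrd1 1420992_at, 0.06, was -0.057 after quantile normalization, -0.95 with array weights and -2.02 with only the low Xist arrays. For time in stressed wounds Wwtr1 1417817_a_at had 0.052 with the Xist class as a block and 0.13 with only the low Xist arrays. With arrays left out, ranges that cross 0 were -0.57 to 0.024 for Ankrd1 1420991_at at day 6, -0.65 to 0.93 for the change of the loading effect of Ankrd1 1420992_at, -0.60 to 0.47 for Ccn1 1438133_a_at and -0.16 to 0.79 for Ccn2 at day 14, and, at day 14, -1.28 to 0.35 for Ankrd1 1420991_at and -0.89 to 0.69 for 1420992_at. The cause was not tested. No correction of background, filter on dim probe sets or slide block was possible with centred values.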
